A study of Caenorhabditis elegans with 12 samples.

Results

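The core apoptosis genes of Caenorhabditis elegans were followed through 12 RNA-seq libraries of 2 strains and 4 ages. The 7 rows described here are the 6 annotated genes ced-3, ced-4, ced-9, egl-1, cep-1 and csp-1, found by their gene numbers, and the assembled locus MXLOC_008250, which lies over ced-9. They are 7 of the 22191 rows of the mRNA table. The rule names the members and uses no measured value, but they were proposed with earlier results of these data known.

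The strains are N2, the wild-type laboratory strain, and CN30, which the labels call transnuclear, a strain in which the nuclear genome of one strain is kept with the mitochondria of another. The labels used here do not name the donors of its nucleus or mitochondria. Titles give the name as NC30, against CN30 in the strain field, which is followed here. Day 0 was sampled with 3 libraries per strain, and days 6, 9 and 12 with 1 each, all from total RNA of worms fed on Escherichia coli, with no drug or transgene named. Whether the day-0 replicates are separate cultures is not stated in the labels, so p-values measure the spread between these libraries, and the SD of a later group also holds the difference between its 3 ages.

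The pathway is a chain of inhibition. The BH3-only protein EGL-1 binds CED-9, the worm's BCL-2 protein, which otherwise holds the APAF-1 homologue CED-4 at mitochondria, and freed CED-4 activates the caspase CED-3. CEP-1, the worm's p53, turns on egl-1 in germ cells with damaged DNA. In adult hermaphrodites the germline is the main site of apoptosis, where part of the germ cells die during normal oogenesis through ced-3 and ced-4 without need of egl-1 or cep-1.

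Levels are in FPKM, which corrects fragments for the length of the gene and the size of the library, so levels of different genes can be set beside each other, but the depth of the libraries is unknown and no counting error can be given. Between 11831 and 14395 mRNA rows reached 1 FPKM in a library. The libraries hold RNA of the whole worm. The 22 germline and oocyte markers summed to 2640 to 3727 FPKM for N2 and 2950 to 3363 for CN30 at day 0, and to 6093 to 7460 and 5001 to 6245 later. The 13 sperm markers went from 2591 to 3366 FPKM at day 0, over both strains, to 8.43 to 136 later, and the 10 body-wall muscle markers from 5773 to 7659 to 506 to 1110. Of the 12 early embryo markers, pal-1 held most of the summed FPKM, and the other 11 summed to 9.75 to 12.3 FPKM at day 0 and 16.9 to 45.7 later, med-1 listed at 0 in all N2 day-0 libraries and med-2 in all CN30 day-0 libraries. Intestine and neuron markers were detected in all libraries. The part of these cell types in the values below was not tested, and in whole worms fewer cells of a type and less RNA per cell cannot be told apart. Counts of calls between strains depended on single libraries. At day 0 the 529 genes called were 81 to 86 without a CN30 replicate and 1753 without N2 replicate 2. At days 6 to 12 the 1690 called were 0 without N2 day 9 or CN30 day 9. The 315 genes called for a difference in the effect of age were 2025 without N2 day 12.

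The values of the members over the libraries are drawn first, then each gene is taken in the order of the pathway.

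**Figure D1:**
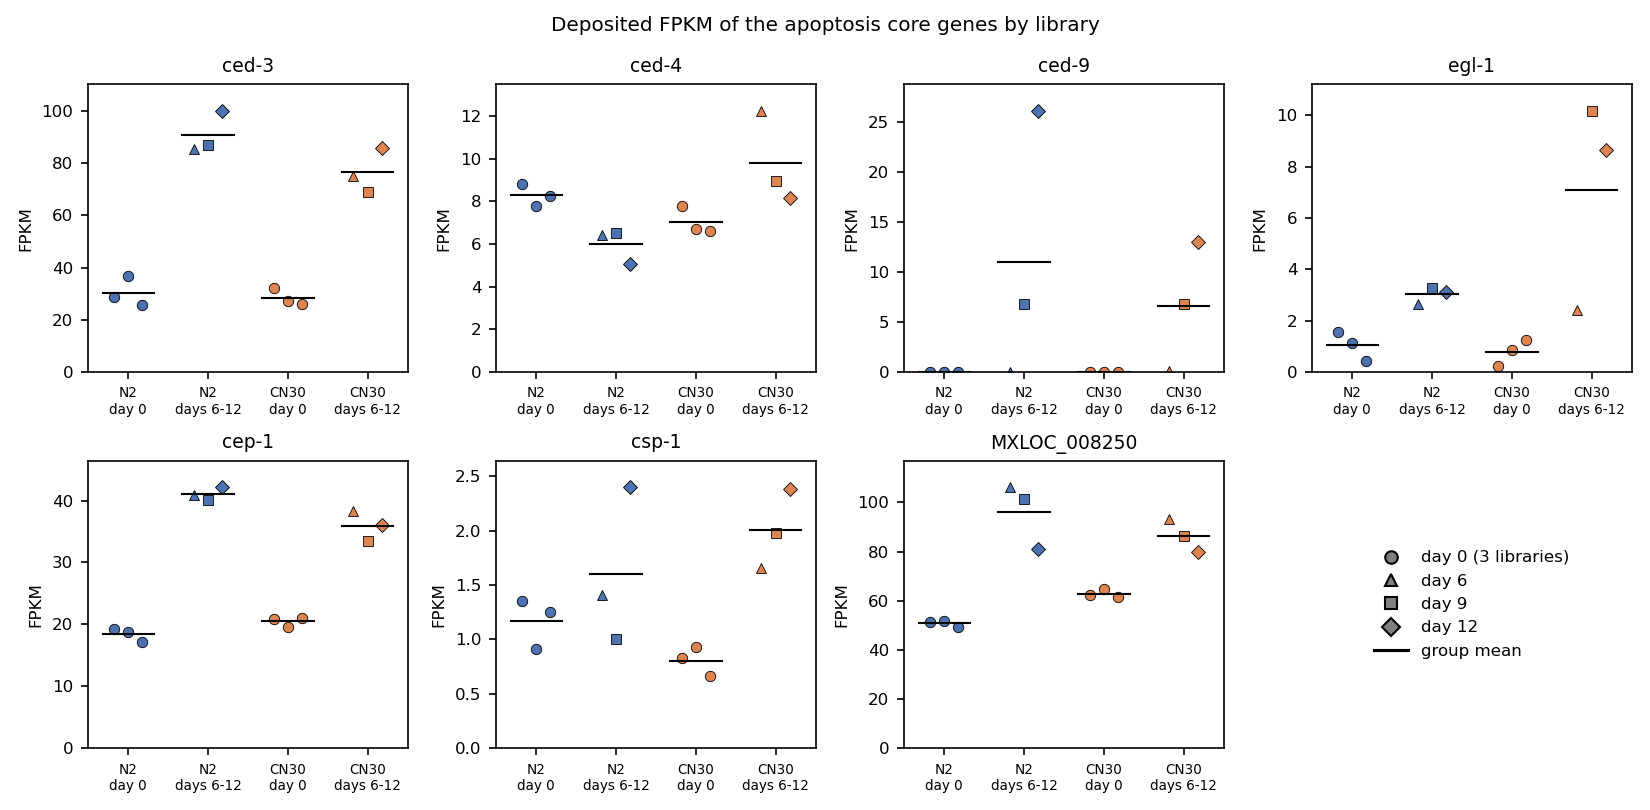
FPKM of each of the 7 members (vertical axis, FPKM on a linear scale from 0) in each of the 12 libraries, grouped by strain and age along the horizontal axis; each point is 1 library, its shape gives the day, and lines are group means. ced-3, cep-1 and MXLOC_008250 stand higher at days 6 to 12 in both strains, and ced-9 is listed at 0 in 7 libraries, all 6 of day 0 among them.

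The caspase gene ced-3, the effector of the pathway (chromosome IV, 13198261 to 13204137, minus strand, WBcel235), was the highest of the 6 annotated members in all 4 groups and about 3 times as high in old N2 as in young. It had 28.53, 36.68 and 25.73 FPKM in the N2 day-0 libraries, and 85.50, 87.11 and 100.19 FPKM at days 6, 9 and 12. CN30 had 32.29, 27.05 and 26.07 FPKM at day 0, and 75.22, 68.86 and 85.68 FPKM at days 6, 9 and 12. All later libraries lay above all day-0 libraries, and the strains overlapped at each age class. The group means were 30.3 ± 5.69 and 90.9 ± 8.06 FPKM for N2 and 28.5 ± 3.34 and 76.6 ± 8.49 for CN30 (SD, n = 3 each). The rise was 1.57 ± 0.15 on the log2(FPKM + 1) scale in N2 (SE, limma adjusted p = 0.000115) and 1.40 ± 0.12 in CN30 (adjusted p = 7.11e-05). Without N2 day-0 replicate 2, the highest of the day-0 libraries for ced-3, the rise in N2 was 1.71. An assembled noncoding locus on the opposite strand, LXLOC_011634, shares 252 exonic bases with ced-3 and did not exceed 0.44 FPKM in a library. The strand setting of the counting is not given in the sources used here.

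The gene of the CED-3 activator, ced-4 (chromosome III, 4852325 to 4855171, plus strand), had later values on opposite sides of day 0 in the strains, by its own row. It had 8.83, 7.76 and 8.23 FPKM in the N2 day-0 libraries and 6.42, 6.53 and 5.05 at days 6, 9 and 12. In CN30 it had 7.80, 6.71 and 6.60 FPKM at day 0 and 12.25, 8.93 and 8.15 at days 6, 9 and 12. The later N2 libraries lay below all N2 day-0 libraries, and the later CN30 libraries above all CN30 day-0 libraries. Neither difference passed: the log2 difference between later and day-0 libraries was -0.41 ± 0.16 in N2 (SE, limma adjusted p = 0.0557) and 0.41 ± 0.17 in CN30 (adjusted p = 0.0607). Under quantile normalization the N2 value was 0.04 and the CN30 value passed at 0.65 (limma adjusted p = 0.00508), whereas after median-ratio rescaling the N2 value passed at -0.64 (adjusted p = 0.0119) and the CN30 value was 0.15.

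The ced-4 row is not alone over the exons of ced-4. An assembled locus on the same strand, MXLOC_007588 (13 exons), covers 88.9% of the exonic bases of ced-4 and all of those of the neighbour F26A1.1, which ends 414 bases upstream. At day 0 MXLOC_007588 ranged from 8.95 to 9.45 FPKM over the N2 libraries and from 9.90 to 12.73 over those of CN30. Later it ranged from 32.13 to 35.05 and from 29.23 to 31.56. Over the exons that both rows share, their levels per length can be added, a sum made after the values were seen. For ced-4 this exon sum was 17.78, 16.99 and 17.68 FPKM in the N2 day-0 libraries and 41.47, 38.66 and 39.88 at days 6, 9 and 12. In CN30 it was 18.56, 19.44 and 16.50 FPKM at day 0 and 42.98, 40.49 and 37.38 later. Later libraries lay above all day-0 libraries in both strains, and the strains overlapped at both age classes. The exon sum was thus 2.29 times as high later in N2 and 2.22 times in CN30, with log2 rises of 1.15 ± 0.09 and 1.11 ± 0.10 (SE, limma adjusted p = 5.17e-05 and 7.98e-05). The share of the sum that the ced-4 row held was 45.7 to 49.7% in N2 and 34.5 to 42% in CN30 at day 0, and 12.7 to 16.9% and 21.8 to 28.5% later. MXLOC_007588 runs over both genes, so its level cannot be divided between ced-4 and F26A1.1. The F26A1.1 row itself rose from 13.8 ± 1.42 to 42.9 ± 2.69 FPKM in N2 (SD, n = 3 each). In CN30 it rose from 12.6 ± 1.23 to 39.2 ± 5.93 FPKM.

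The zeros of ced-9, the gene of the CED-4 inhibitor, were read against the locus assembled over it. ced-9 (chromosome III, 10335172 to 10337522, plus strand, 1285 exonic bases) was listed at 0 in all 6 day-0 libraries and at N2 day 6. It had 6.81 FPKM at N2 day 9 and 26.15 at N2 day 12. The CN30 values were 0.06, 6.78 and 13.03 FPKM at days 6, 9 and 12. In the later libraries of each strain, the value was higher at each later day sampled, with 1 library a day. The ced-9 row did not pass the filter on low values (at least 1 FPKM in at least 3 libraries of the comparison) in either strain, and no fold can be given against libraries at 0.

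MXLOC_008250 (chromosome III, 10334278 to 10337202, plus strand) is 1 transcript of 6 exons and 1695 bases. It runs over ced-9 and over mev-1, which ends 3 bases before ced-9 starts and codes for the cytochrome b subunit of succinate dehydrogenase in the respiratory chain. The pair is known as an operon, a cluster transcribed as a single precursor. Exon 3 of the assembled transcript, 532 bases long, joins the last exon of mev-1 to the first exon of ced-9 across the gap between the genes. Its exons hold 75.1% of the exonic bases of ced-9 and 99.9% of those of mev-1, and it ends 320 bases before ced-9 does.

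**Figure D2:**
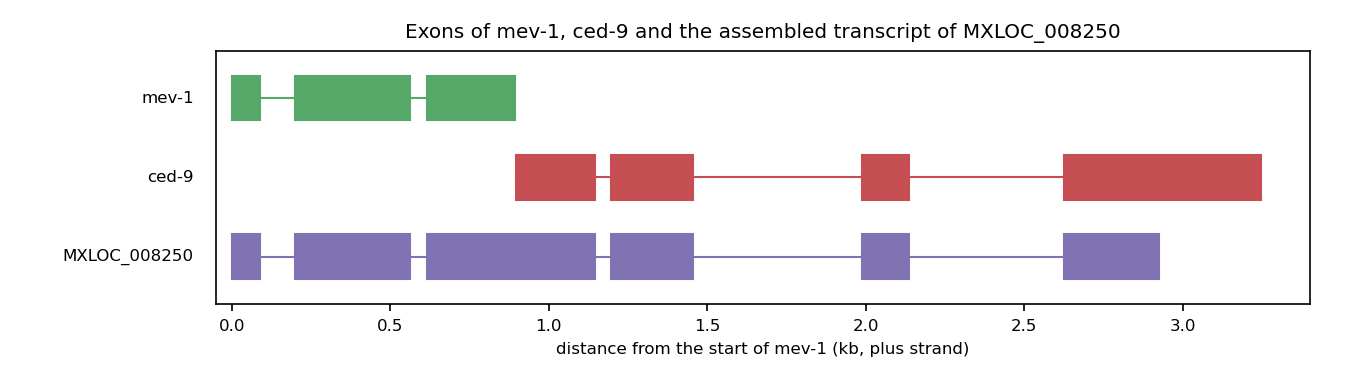
Map of the exons of mev-1, ced-9 and the assembled locus MXLOC_008250, drawn to scale along the plus strand as distance in kilobases from the start of mev-1; boxes are exons and lines introns. The assembled transcript spans both genes in 6 exons, its exon 3 joins them, and it ends 320 bases before the annotated end of ced-9.

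MXLOC_008250 had 51.36, 51.88 and 49.53 FPKM in the N2 day-0 libraries, where ced-9 was listed at 0. It had 106.22, 101.35 and 81.03 FPKM at N2 days 6, 9 and 12. The CN30 day-0 libraries held 62.47, 64.60 and 61.67 FPKM, and those of the later ages 93.17, 86.48 and 79.72 at days 6, 9 and 12. All later libraries lay above all day-0 libraries, and at day 0 all CN30 libraries lay above all N2 libraries. The rise with age was 0.90 ± 0.12 on the log2 scale in N2 (SE, limma adjusted p = 0.00049) and 0.45 ± 0.08 in CN30 (adjusted p = 0.00167). The CN30 rise did not pass under quantile normalization (0.21, limma adjusted p = 0.0591) or median-ratio rescaling (0.16, adjusted p = 0.114).

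The exon sum of ced-9 and MXLOC_008250 was nearly level among the later libraries of a strain, while its parts were not. It was 51.36, 51.88 and 49.53 FPKM in the N2 day-0 libraries and 106.22, 108.16 and 107.18 at days 6, 9 and 12. In CN30 it was 62.47, 64.60 and 61.67 FPKM at day 0 and 93.23, 93.26 and 92.75 later. Over the later libraries the ced-9 row took a larger share of this sum at each later day, with 0, 6.30 and 24.4% at N2 days 6, 9 and 12 and 0.0644, 7.27 and 14% at the same days of CN30. From day 0 to the later ages the sum went from 50.9 ± 1.23 to 107 ± 0.970 FPKM in N2 (SD, n = 3 each), and from 62.9 ± 1.51 to 93.1 ± 0.286 in CN30. It rose 2.1 times in N2 (log2 1.06 ± 0.07, limma adjusted p = 2.68e-05) and 1.48 times in CN30 (0.56 ± 0.06, adjusted p = 0.000162). How the authors' quantification shared reads between ced-9 and MXLOC_008250 was not tested.

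**Figure D3:**
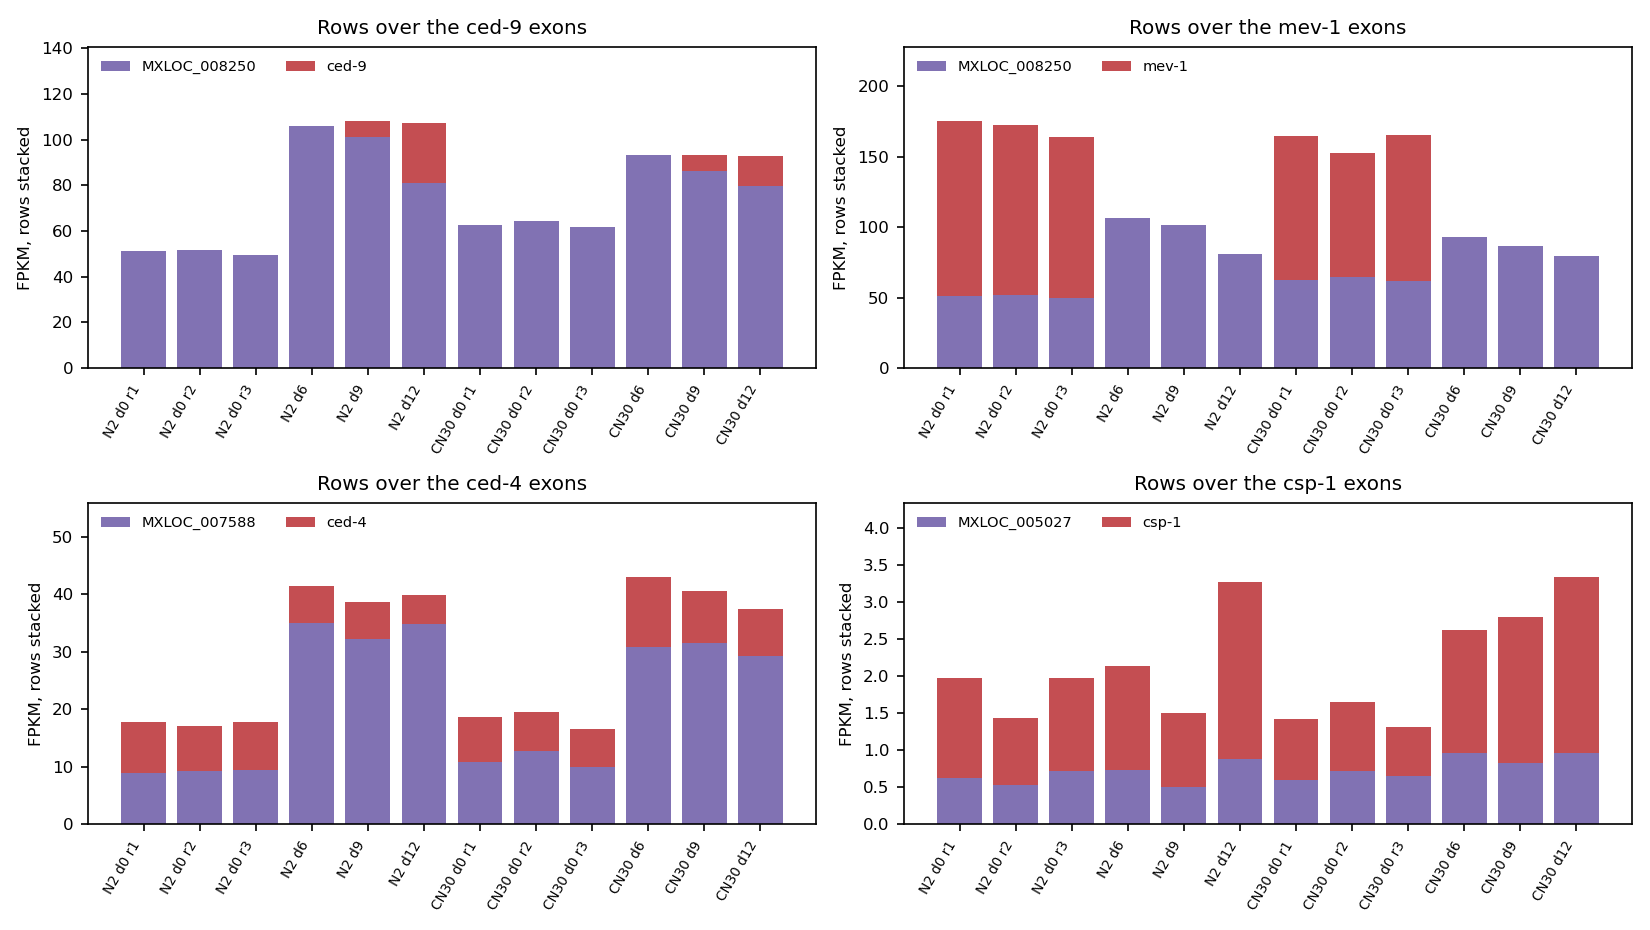
Stacked bars, starting at 0, of the FPKM of an annotated row and of the assembled locus over the same exons in each of the 12 libraries, for ced-9 and mev-1 with MXLOC_008250, ced-4 with MXLOC_007588 and csp-1 with MXLOC_005027. The ced-9 stacks reach 92.75 to 108.16 FPKM in all 6 later libraries although the ced-9 part runs from 0 to 26.15, and the ced-4 stacks reach 37.38 to 42.98.

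The mev-1 row was above 0 only at day 0, where ced-9 was at 0, but at day 6 both rows were at or near 0. It had 123.79, 120.23 and 114.56 FPKM in the N2 day-0 libraries and 101.76, 88.15 and 103.37 in those of CN30, with 0 listed for each of the 6 later libraries. MXLOC_008250, which runs over mev-1, had 79.72 to 106.22 FPKM in those 6 libraries. A listed 0 is therefore not read as absent RNA, for mev-1 or for ced-9. Why the zeros arose was not tested. The exon sum of mev-1 and MXLOC_008250 went from 170 ± 5.71 to 96.2 ± 13.4 FPKM in N2 and from 161 ± 6.87 to 86.5 ± 6.73 for CN30 (SD, n = 3 each), log2 differences of -0.83 ± 0.11 and -0.89 ± 0.08 (SE, limma adjusted p = 0.000664 and 8.64e-05). Weighted by length and summed over ced-9, mev-1 and MXLOC_008250, the locus held 167 to 177 FPKM times kilobases in N2 at day 0 and 171 to 181 later, with overlap, and 174 to 180 and 152 to 158 in CN30, without. MXLOC_008250 covers exons of both genes, so its level is not a level of ced-9 alone.

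egl-1, which codes for the BH3-only protein that starts the pathway (chromosome V, 14431308 to 14432359, minus strand), was low at day 0 and rose in both strains. It had 1.54, 1.11 and 0.44 FPKM in the N2 day-0 libraries and 2.66, 3.28 and 3.11 at days 6, 9 and 12. In CN30 it had 0.23, 0.84 and 1.26 FPKM at day 0 and 2.40, 10.19 and 8.66 at days 6, 9 and 12. All later libraries lay above all day-0 libraries, and CN30 days 9 and 12 stood above the rest. The rise was 1.02 ± 0.23 on the log2 scale in N2 (SE, limma adjusted p = 0.00702) and 2.06 ± 0.49 in CN30 (adjusted p = 0.0072), and the difference between these rises did not pass (1.04 ± 0.59, adjusted p = 0.294). With 1 FPKM added before the log, the changes of a gene this low are understated.

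cep-1, the p53 gene (chromosome I, 8324286 to 8328859, plus strand), rose in both strains. It had 19.32, 18.78 and 17.18 FPKM in the N2 day-0 libraries and 40.83, 40.14 and 42.17 at days 6, 9 and 12. CN30 had 20.81, 19.59 and 21.11 FPKM at day 0 and 38.28, 33.44 and 36.09 later. At day 0 CN30 lay above N2 in all libraries and later below N2 in all libraries, but neither strain difference passed (log2 0.15 ± 0.08, limma adjusted p = 0.33, and -0.19 ± 0.08, adjusted p = 0.175). The rise was 1.12 ± 0.09 in N2 (limma adjusted p = 6.98e-05) and 0.78 ± 0.08 in CN30 (adjusted p = 0.000196), 2.23 and 1.75 times in FPKM. The opposite-strand noncoding locus LXLOC_002501 shares 482 exonic bases with cep-1 and did not exceed 1.01 FPKM.

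csp-1, a second caspase gene (chromosome II, 13601204 to 13605057, plus strand), stayed between 0.66 and 2.40 FPKM. It had 1.35, 0.91 and 1.25 FPKM in the N2 day-0 libraries and 1.41, 1 and 2.40 later, which overlap. In CN30 it had 0.83, 0.93 and 0.66 FPKM at day 0 and 1.66, 1.98 and 2.38 later, which do not. The CN30 difference passed (log2 0.73 ± 0.13, limma adjusted p = 0.00189), but csp-1 met the filter in CN30 only through the 3 later libraries, where it was high, and did not enter the test once any of them was left out. With no filter its adjusted p was 0.00342 (limma). In N2 the value was 0.23 ± 0.22 (limma adjusted p = 0.378), which passed under quantile normalization at 1.04 (adjusted p = 0.00202). The difference between the strains in the effect of age did not pass (0.50 ± 0.27, adjusted p = 0.275). The locus MXLOC_005027 covers all exons of csp-1 at 0.50 to 0.96 FPKM, and the exon sum with csp-1 gave the same calls, 0.21 ± 0.23 in N2 (limma adjusted p = 0.431) and 0.67 ± 0.12 in CN30 (adjusted p = 0.00225).

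Among the annotated members, the order of mean FPKM at day 0 was ced-3, cep-1, ced-4, then csp-1 and egl-1, with ced-9 at 0. csp-1 and egl-1 overlapped in both strains and do not differ beyond their spread, whereas the rows of ced-3, cep-1 and ced-4 did not overlap each other. Later the order in N2 was ced-3, cep-1, ced-9, ced-4, egl-1, csp-1, and ced-9, from 0 to 26.15 FPKM, overlapped all of the others but ced-3 and cep-1. In CN30 the later order was ced-3, cep-1, ced-4, egl-1, ced-9, csp-1, where ced-4, egl-1 and ced-9 overlapped each other and ced-9 also overlapped csp-1. Within the annotated rows at 1 FPKM or more, ced-3 stood at percentile 69.9 in N2 day 0 and 85.3 later, and ced-4 at 37.4 and 31.7. In CN30 ced-3 stood at 68.2 and 84.1, and ced-4 at 35 and 41.9. With its exon sum in place of the row, ced-9 would come first at day 0 and later in both strains, though the locus in that sum also covers mev-1. The order and the percentiles also use the ced-4 row alone. The exon sum of ced-4, whose locus also covers F26A1.1, overlapped cep-1 in N2 at day 0 and later. In CN30 it lay below cep-1 at day 0 and overlapped it later, with the higher mean (40.3 against 35.9 FPKM).

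Age against day 0 was called for 4 of 6 members tested in N2, all higher (ced-3, egl-1, cep-1 and MXLOC_008250), where 72.7% of all genes tested were called, 40.7% higher and 32% lower. In CN30 5 of 6 were higher, where 80.9% of all genes were called, 46.0% higher and 34.9% lower. The fifth is csp-1, which entered only through its later libraries, and 4 members were called without CN30 day 6 or day 9. With most genes of the worm moving with age, these counts are read against that background. The median log2 difference of all genes tested was 0.14 in N2 and 0.24 in CN30, and -0.09 and -0.01 after median-ratio rescaling, and of the calls in N2 56% were higher, 62.8% under quantile normalization and 47.7% after median-ratio rescaling. A 3 against 3 exact permutation test cannot go below p = 0.1. Over both strains, with age labels permuted within each strain, a test added after the values were seen, ced-3, egl-1, cep-1 and MXLOC_008250 each reached the smallest p this allows (exact permutation, two-sided, p = 0.005), higher in 6 of 6 later libraries. It was not run over all genes, so the share of all genes that reach this p is unknown. With 72.7% and 80.9% of all genes called for age, this p does not set these members apart. The same exact permutation test gave p = 0.02 for csp-1, p = 1 for the ced-4 row, and p = 0.005 for the exon sums of ced-9 and ced-4. The ced-9 row gave p = 0.02 in the same exact permutation test, but most of its values are 0. For the length-weighted sum over the ced-9 locus, which also holds mev-1, the exact permutation test gave p = 0.085.

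**Figure D4:**
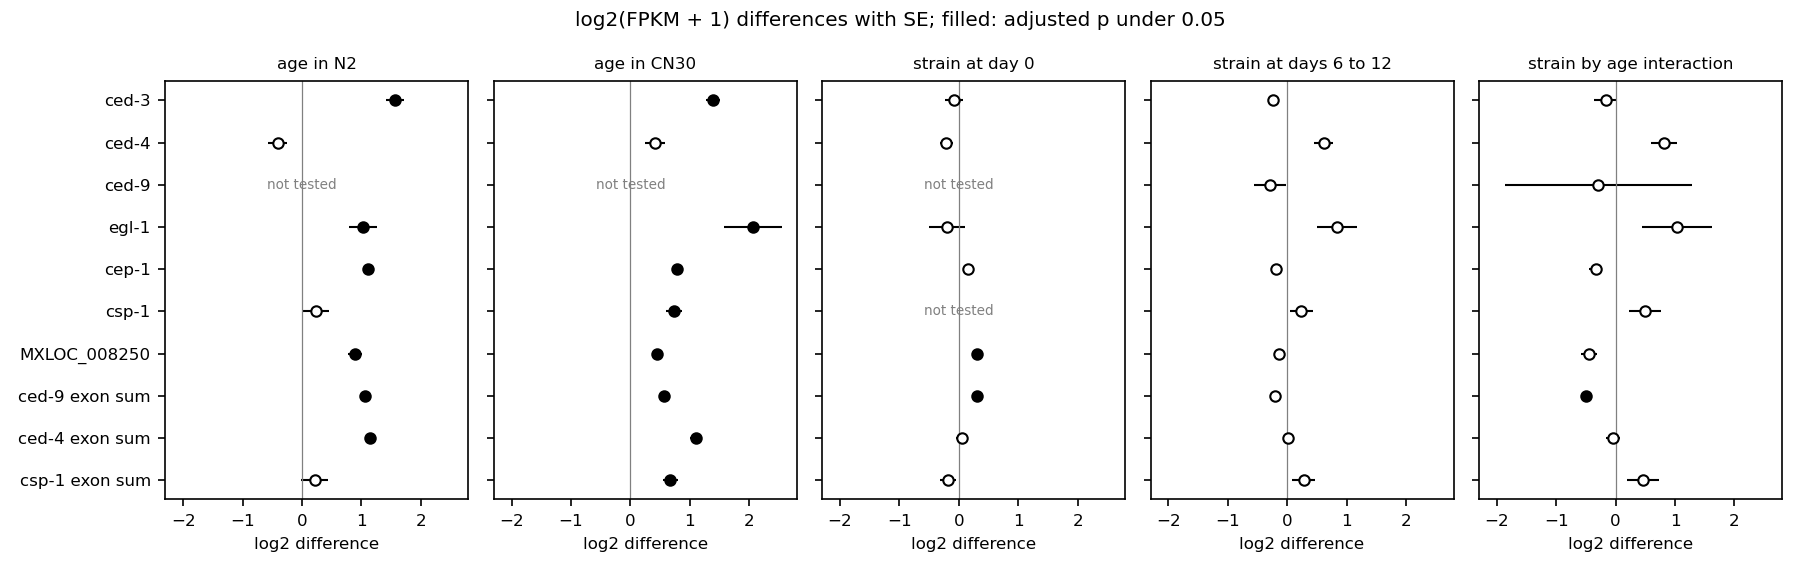
Log2 differences of the members and of 3 exon sums on the log2(FPKM + 1) scale with their standard errors from limma, for age within N2, age within CN30, CN30 against N2 at day 0 and at days 6 to 12, and the difference of the age effects. Filled points have an adjusted p under 0.05, open points do not, and members that did not pass the filter are written as not tested; the filled members are 4 for age in N2, 5 for age in CN30, and MXLOC_008250 at day 0, and the ced-9 exon sum is the filled point of the last panel.

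Between the strains at day 0, 1 of 5 members tested was called, MXLOC_008250, whose day-0 levels are given above (log2 0.30 ± 0.06, limma adjusted p = 0.0436), where 3.68% of all genes were called and 2.07% were higher in CN30. This call was lost in 9 of 12 alternatives, with limma adjusted p between 0.079 and 0.229 in those, among them every single-library omission but that of N2 replicate 2. The log2 differences of the others were -0.08 for ced-3 (limma adjusted p = 0.766), -0.21 for ced-4 (adjusted p = 0.325), -0.20 for egl-1 (adjusted p = 0.708) and 0.15 for cep-1. The exon sum of ced-4 differed by 0.05 ± 0.09 (limma adjusted p = 0.748).

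At days 6 to 12, limma called 0 of 7 members between the strains, where 13% of all genes were called. An unadjusted limma p under 0.05 was found for 2 members, ced-3 and ced-4, and for 4760 of all 13015 genes tested. ced-3 had -0.25 ± 0.07 on the log2 scale (adjusted p = 0.0743) and ced-4 0.61 ± 0.16 (limma adjusted p = 0.0708). The ced-4 row passed when all 12 libraries were fitted together (limma adjusted p = 0.0296), but its exon sum was 40 ± 1.41 FPKM for N2 and 40.3 ± 2.81 for CN30 (SD, n = 3 each), which is a log2 difference of 0.01 ± 0.08 (adjusted p = 0.951). The exon sum of ced-9 was lower in each CN30 library than in each N2 library, by -0.20 ± 0.06 (limma adjusted p = 0.0836).

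The difference between the strains in the effect of age was called for 0 of 7 members by limma, where 2.0% of all genes were called, 1.15% upwards and 0.852% downwards. An unadjusted limma p under 0.05 was found for cep-1, MXLOC_008250 and ced-4, and for 3885 of all 15719 genes tested. Without the N2 day-12 library, MXLOC_008250 passed, at -0.56 (limma adjusted p = 0.0115) against -0.45 ± 0.14 with it (adjusted p = 0.102). For the exon sum of ced-9 the difference was -0.50 ± 0.07 (limma adjusted p = 0.0114), a smaller rise in CN30 than in N2, and it did not pass under quantile normalization (-0.41, adjusted p = 0.0517). That sum is MXLOC_008250 alone at day 0, where the sharing of reads with mev-1 cannot be told apart from a strain difference. For the exon sum of mev-1 the difference was -0.06 ± 0.14 (limma adjusted p = 0.819). For the exon sum of ced-4 it was -0.04 ± 0.12 (adjusted p = 0.857).

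Among 13065 annotated genes that entered the comparison, the row most like ced-3 over the 12 libraries was arid-1 (Pearson r = 0.995 on the log2 scale), the one most like cep-1 was C32D5.10 (r = 0.995), and 3028 and 3058 genes had r above 0.9 with them. ced-4 was most like hpk-1 (r = 0.886) with 0 genes above 0.9, egl-1 most like ifas-2 (r = 0.952), csp-1 most like dpff-1 (r = 0.948) and the ced-9 row most like pole-3 (r = 0.981). Among the members, ced-3 and cep-1 had r = 0.974. The libraries fall into 2 age classes, which these values share, so they describe the order of libraries and nothing more.

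The rest of the pathway was read from 7 lists of 111 genes, of which 104 were in the table. In N2 66 of 94 tested were higher at the later ages, 12 lower and 16 did not pass, with a median log2 difference of 0.87 against 0.14 for all genes. In CN30 71 of 95 were higher, 10 lower and 14 did not pass, with a median of 0.93 against 0.24. Among the higher genes, ces-2, hlh-3 and ced-6 in both strains and fsn-1 in CN30 met the filter only through their later libraries. Their entry into the counts thus depended on being high there. Of all genes tested, 40.7% were higher and 32% lower in N2, and 46.0% and 34.9% in CN30, and the counts of the single lists are read against these shares. All 6 lists with tested members had a positive median in both strains under each scaling tried. Under quantile normalization the median of all genes was itself positive, 0.304 in N2 and 0.301 in CN30. The lowest list median there, that of the corpse maturation list, was 0.332 in N2, near that of all genes, and 0.422 in CN30. The germline and oocyte markers moved the same way, with 19 of 22 higher and 1 lower in each strain and medians of 1.43 in N2 and 1.06 in CN30, and the part of the germline in the lists was not tested.

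**Figure D5:**
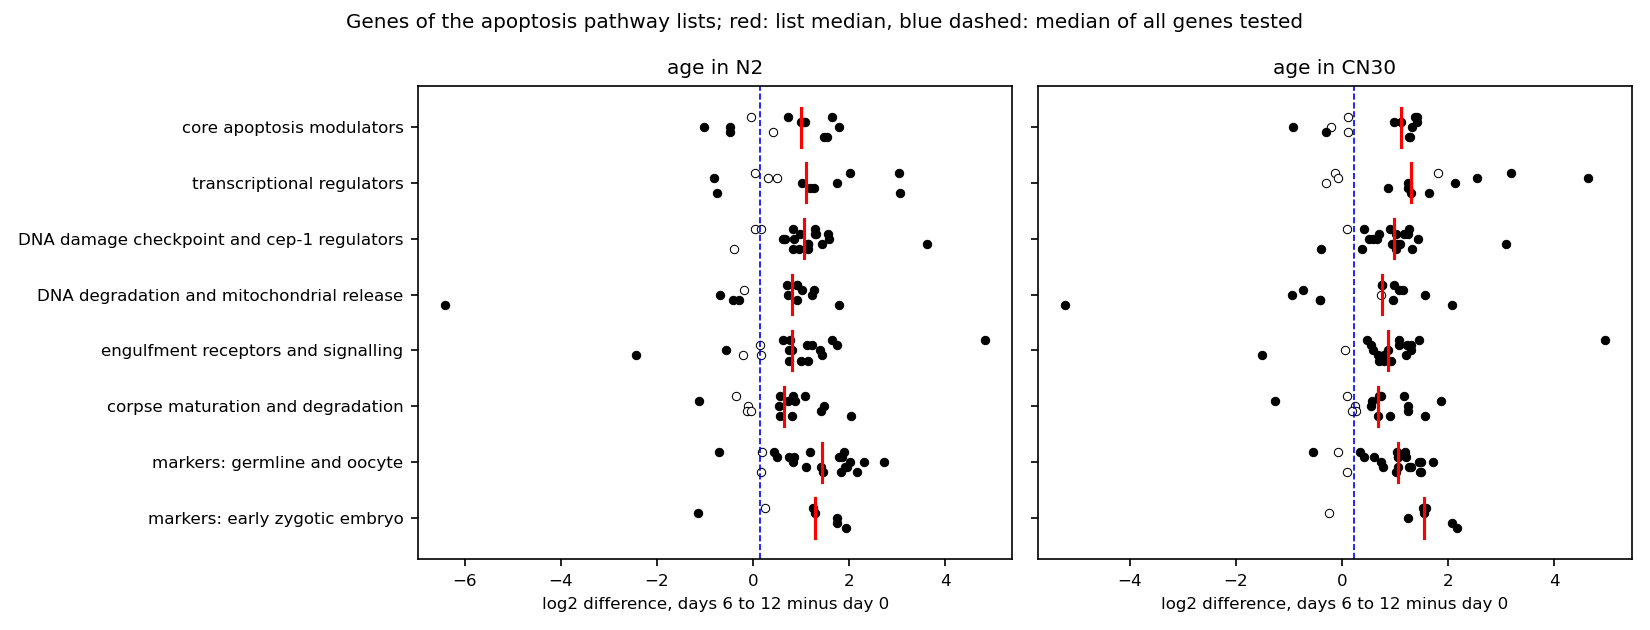
Log2 differences between days 6 to 12 and day 0, on the log2(FPKM + 1) scale, of the tested genes of each pathway list and of the germline and embryo markers, 1 point per gene, for N2 and CN30; filled points have a limma adjusted p under 0.05, red bars are list medians and the dashed line is the median of all genes tested. In the list of DNA damage genes and cep-1 regulators 17 of 20 genes in N2 and 18 of 20 in CN30 are filled on the higher side.

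The other BH3-only gene and the other caspase-like genes were at or near 0. ced-13, which codes for a second BH3-only protein and is a cep-1 target, was listed at 0 in 11 libraries and had 0.43 FPKM at CN30 day 9. The caspase-like genes csp-2 and csp-3 did not exceed 0.50 and 0.44 FPKM, and none of these 3 passed the filter. An assembled coding locus on the same strand lies over csp-2, so its low values are those of its own row only. The level of that locus is not given here.

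Of the modulators of the core machinery, 8 of 13 tested were higher in each strain, 3 were lower in N2 and 2 in CN30 (all genes: 40.7% higher in N2 and 46.0% in CN30). They include bir-2, an IAP-family gene, with 15.3 ± 2.36 and 54.9 ± 1.74 FPKM for N2 at day 0 and later (SD, n = 3 each) and 17 ± 1.47 and 44.2 ± 4.47 for CN30, and the E2F and Rb homologues efl-1 and lin-35. efl-1 had 26.8 ± 2.90 and 85.6 ± 4.09 FPKM in N2 (log2 1.65 ± 0.10, limma adjusted p = 2.68e-05). lin-35 had 22.8 ± 1.97 and 68 ± 7.88. Those lower in both strains were icd-2, of the nascent polypeptide-associated complex, and tfg-1.

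Of the transcription factors and other genes reported to set egl-1, ced-3 or ced-9 expression, 7 of 12 were higher and 2 lower in N2, where 40.7% of all genes were higher. In CN30 9 of 13 were higher and 0 lower, where 46.0% of all genes were higher. The bZIP gene ces-2 had at most 0.17 FPKM in the 6 day-0 libraries. It had 3.62, 5.82 and 19.95 FPKM at N2 days 6, 9 and 12 and 23.72, 28.27 and 28.93 in CN30. N2 was thus lower than CN30 at each day, with 1 library a day, but the strain difference of ces-2 at days 6 to 12 did not pass. hlh-2, an E-protein gene that activates egl-1, rose from 1.81 ± 0.570 to 22.1 ± 2.05 FPKM in N2 and from 2.63 ± 0.255 to 32.3 ± 2.35 in CN30. pal-1, a caudal homologue that acts on ced-3, rose from 62.9 ± 9.29 to 213 ± 7.51 FPKM in N2 and from 72.7 ± 0.641 to 173 ± 10.4 in CN30.

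DNA damage checkpoint genes and regulators of cep-1 held 17 higher and 0 lower of 20 in N2, and 18 higher and 1 lower, kri-1, in CN30, against 40.7% and 46.0% of all genes higher. hpr-17, a clamp-loader gene, rose from 19.2 ± 0.475 to 58.2 ± 0.692 FPKM in N2 and from 21.9 ± 0.429 to 50.5 ± 2.2 in CN30. ape-1, which codes for the inhibitor of CEP-1 of the iASPP type, rose from 44.6 ± 0.406 to 112 ± 6.80 and from 49.5 ± 0.860 to 119 ± 8.11. The F-box gene fsn-1, a negative regulator of CEP-1, was listed at 0 in 5 of 6 day-0 libraries, while MXLOC_007607 over it had 40.13 to 48.79 FPKM there, as with ced-9 and MXLOC_008250.

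Of the genes for DNA degradation and mitochondrial release, 9 of 14 were higher and 4 lower in N2, and 8 higher and 5 lower in CN30, shares near those of all genes in CN30 (46.0% higher, 34.9% lower). The nuclease genes crn-1 and crn-3 rose, crn-1 from 33.5 ± 2.04 to 82.2 ± 3.45 FPKM in N2 and crn-3 from 39.9 ± 1.32 to 76.9 ± 9.75. cyc-2.2, a cytochrome c gene, went from 195.77 to 258.66 FPKM in the day-0 libraries to 0.30 to 14.92 in the later ones, and wah-1, the AIF homologue, and crn-7 were lower as well.

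Of the engulfment genes, 14 of 19 were higher and 2 lower in N2, and 17 higher and 1 lower in CN30, against 40.7% and 46.0% of all genes higher. ced-1, the receptor for dying cells, rose from 17.6 ± 0.464 to 57.4 ± 4.30 FPKM in N2 and from 19 ± 0.873 to 53.6 ± 1.04 in CN30. ced-6, its adaptor, was listed at 0 in all day-0 libraries and had 24.02 to 33.76 FPKM later, while MXLOC_007682 over it stayed between 45.75 and 53.10 FPKM throughout. The integrin gene pat-2, used in muscle, fell in both strains, from 37.5 ± 8.32 to 6.32 ± 2.49 FPKM in N2 and from 46.9 ± 0.908 to 16 ± 2.61 in CN30. Of the corpse maturation genes, 11 of 16 were higher and 1 lower in each strain, where 40.7% and 46.0% of all genes were higher. The lower one was cpl-1, a cathepsin L gene. sand-1, which codes for a factor in phagosome maturation, rose from 21.2 ± 2.97 to 89.9 ± 4.31 FPKM in N2 and from 27.7 ± 2.40 to 83.9 ± 3.79 in CN30. In all, 29 of the 104 listed genes lie under an assembled coding locus on the same strand, and of all 3167 such loci 39.6% overlap 2 or more annotated coding genes by at least 100 exonic bases.

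Between strains at day 0, limma called 1 of 89 genes, tra-1, the sex-determining factor that represses egl-1 in some neurons, at 45.3 ± 1.29 FPKM for N2 and 32.3 ± 1.61 for CN30 (SD, n = 3 each; log2 -0.47 ± 0.07, adjusted p = 0.0167), where 3.68% of all genes were called. The count was 0 with the replicate block, without N2 replicate 1 and without each of the CN30 replicates in turn. MXLOC_009879 over tra-1 had 8.61 to 10.03 FPKM in the same libraries. At days 6 to 12, 12 of 94 were higher and 2 lower in CN30, where 9.77% and 3.21% of all genes were. The higher ones included rab-14, which acts in phagosome maturation, at 34.5 ± 9.70 FPKM in N2 and 63.9 ± 13.8 in CN30, nrf-5, a lipid-binding protein gene, at 25.6 ± 3.35 and 46.9 ± 3.51, and unc-86, a neuronal POU factor gene, at 2.28 ± 1.88 and 8.5 ± 0.556. The lower ones were gla-3 and fsn-1. The fsn-1 row lay between 15.11 and 28.05 FPKM for N2 and between 6.37 and 8.37 for CN30, while MXLOC_007607 over the same exons had 88.44 to 110.03 and 100.38 to 110.94, so a different sharing of reads between these rows cannot be told apart from a strain difference of fsn-1. Neuron markers were higher in CN30 for 6 of 11 and germline markers lower for 9 of 22 in the same comparison, and their part in these calls was not tested. The later-age calls fell to 0 when N2 day 6, N2 day 9, CN30 day 6 or CN30 day 9 was left out, and to 8 without N2 day 12 or CN30 day 12. The difference in the effect of age was called by limma for 0 of 95 genes, where 2.0% of all genes were called. An unadjusted limma p under 0.05 was found for 19 of the 95 and for 3885 of all 15719 genes tested. Without N2 day 12 the difference was called for 13, where 13% of all genes were called.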

How the data were processed

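The authors deposited FPKM per gene and library in a table of mRNA rows and a table of lncRNA rows, and a table with other units that lists the exons, positions and lengths in bases of 9161 assembled transcripts, per the file headers. Per the submitters' processing notes, the build was WBcel235, and StringTie and HISAT were among the tools, their versions not stated. No read counts were used.

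Annotated rows were given symbols by gene number (18888 of 19024 matched), and exons were compared with the WBcel235 annotation. Log2(FPKM + 1) over the whole mRNA table was modelled in limma (version 3.58.1 under R 4.3.3) by lmFit and trended eBayes. Rows entered with at least 1 FPKM in at least 3 libraries of the comparison. P-values are two-sided, adjusted by Benjamini-Hochberg over all rows tested, with a threshold of 0.05. Ages were compared within strains and strains at day 0 (3 against 3 libraries), strains at days 6 to 12 with day as a factor, and the product of strain and age class over all 12 libraries. The 5 fits were run on simulated data with independent noise, and changes were planted in rows of higher level only. The recovery of changes in low rows such as egl-1 and csp-1, and the sharing of reads between rows, were thus not checked.

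The members and gene lists were chosen with earlier results of these data known, so no count over them is independent evidence. Of each list the rule takes the 2 genes with the smallest p in the age comparisons and the interaction, and any gene past the threshold between strains; of these the text describes a part. The other genes named (ced-13, csp-2, csp-3, icd-2, tfg-1, kri-1, wah-1, crn-7, cpl-1) were chosen after their values were seen. Each library was left out in turn, and other fits used a pseudocount of 0.1, every row without a filter, 2 rescalings (quantile, median-ratio), all 12 libraries jointly, a replicate block, or no term for day. Exon sums, and age labels permuted within strain, were added after seeing the data. Figures were drawn with Matplotlib 3.10.9 in Python 3.11.15, and tables made with NumPy 2.4.6 and pandas 2.3.3.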

Additional observations from a re-analysis of the deposited data

Results flagged for a closer look

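For the ced-4 row every later library of N2 lay below, and every later library of CN30 above, all day-0 libraries of its strain. The difference between these effects was 0.82 on the log2 scale (0.8189, limma adjusted p = 0.0754) and did not pass. For the exon sum of ced-4 and MXLOC_007588 it was -0.04.

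The exon sum of ced-9 and MXLOC_008250 differed between the strains in its effect of age, by -0.50 on the log2 scale (limma adjusted p = 0.0114), with rises of 1.06 in N2 and 0.56 in CN30. Under quantile normalization the difference did not pass (-0.41, limma adjusted p = 0.0517). MXLOC_008250 also covers mev-1, and a different sharing of reads between these rows cannot be told apart from a strain difference. No cause was tested for either value.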

How the results depend on the processing

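The age calls of ced-3, egl-1 and cep-1 in both strains kept their direction and passed under all 11 alternatives. The age rises of the exon sums of ced-9 and ced-4 did so under all 10. The length-weighted sum over the ced-9 locus, the planned reading, did not rise. It was 1.02 times as high later in N2 and 0.87 times in CN30 (exact permutation, two-sided, p = 0.5 and 0.1). Strain calls were less stable. Genes called at day 0 (529) were 839 under quantile normalization, 158 with the replicate number as a block and 81 to 1753 with a library left out. The member called there (1) went to 0 under quantile normalization, median-ratio rescaling, the joint fit and the block, and to 0 to 1 with a library left out, and the 1 pathway gene to 0 with the block and 0 to 5. At days 6 to 12, genes called (1690) were 2 without a filter, 873 under quantile normalization, 134 without the day term and 0 to 1050 with a library left out. Members called (0) were 1 in the joint fit. Pathway genes (14) were 0 without a filter, 9 under quantile normalization, 1 without the day term and 0 to 8 with a library left out. For the difference in the effect of age, genes called (315) were 194 with the smaller pseudocount, 552 after median-ratio rescaling and 58 to 2025 with a library left out, members called (0) were 0 to 1, and pathway genes (0) were 1 without a filter, 1 after median-ratio rescaling and 0 to 13. Of strain calls at day 0, 56.1% were higher in CN30, 38.1% under quantile normalization.

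Signs turned for the ced-4 age effect in N2 under quantile normalization (0.03863), for ced-3 at day 0 without N2 replicate 2 (0.06294; -0.18473 to 0.06294 over libraries left out), for egl-1 at day 0 without CN30 replicate 1 (0.0453; -0.42614 to 0.0453), for ced-9 at days 6 to 12 without N2 or CN30 day 12 (0.03926; -0.47899 to 0.03926), for csp-1 there under quantile normalization (-0.11947; exon sum -0.08737), and for the ced-9 difference in the effect of age without N2 day 12 (0.8021) or CN30 day 6 (0.80904; -1.57934 to 0.80904). The ced-4 exon sum, near 0 between strains, turned at day 0 under quantile normalization (-0.01074) and median-ratio rescaling (-0.01568), at days 6 to 12 after median-ratio rescaling (-0.05505) and without a day-6 (-0.01298) or day-9 (-0.02032) library (up to 0.05774), and in the difference of age effects under quantile normalization (0.04894) and without CN30 replicate 2 (0.00648) or day 12 (0.01004; from -0.10554). As plain sums of FPKM instead of sums weighted by length, the log2 change of the ced-9 locus was -0.66922 in N2 and -0.78759 in CN30, of the ced-4 locus 1.40454 in N2 and of the csp-1 locus 1 in CN30. The cause of these changes was not tested. Same-numbered replicates of the strains at day 0 had r = 0.0589, -0.0347 and -0.0170 between their deviations, and differently numbered ones from -0.183 to 0.153. With 3 libraries per strain these values cannot decide whether equal numbers share a culture, which the labels do not say. With the replicate block MXLOC_008250 had a limma adjusted p of 0.168 at day 0. Depth is unknown, and 1 library per later day limits what can be said of single days.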
